A study of Saccharomyces cerevisiae with 9 samples.

Results

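Haploid yeast deletion strains were compared between plates with 100 µM sodium arsenite, the lowest dose given to this pool, and plates with 0 µM. Each strain of Saccharomyces cerevisiae in the pool lacks 1 gene and carries short DNA tags that identify it, so that the ratio of tag signals between an arsenite culture and a control culture measures how the strain fared relative to the pool. A strain entered the comparison when it had a value on each array from at least 1 annotated tag probe (in 10 strains from different tags), which gave 3819 strains of the 5101 with a value on any of the 9 arrays of the series. The 100 µM array held 4089 strains and the 0 µM array 3905. Each dose has 1 array, so there is no replicate and no test, and every value below is a description of these arrays.

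The pool was made by sporulating heterozygous diploid knockout strains and selecting MATa progeny. Per the labels, the diploid parent was BY4743 (from S288C), carried the haploid selection reporter can1delta::LEU2-MFA1pr-HIS3 over CAN1, was his3delta1, leu2delta and ura3delta0, and was heterozygous at LYS2 and MET15, with the gene of each strain replaced by kanMX. For each array a batch of cells was divided and both portions were spread on haploid-selecting plates until confluent, 1 portion without arsenite and the other with 100 µM or, on the control array, 0 µM. Haploids without an essential gene cannot divide, and what the tags of those genes measure here is uncertain. The strains were grown together, and fewer cells of a strain cannot be told apart from less tag DNA recovered per cell.

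Arsenite, the trivalent form of arsenic, binds thiol groups of proteins. Yeast takes it up through the aquaglyceroporin FPS1, pumps it out through the plasma membrane transporter ARR3, whose gene is switched on by the transcription factor ARR1, and moves its glutathione conjugate into the vacuole through YCF1. Prefoldin is a hexamer of 2 kinds of subunit that holds newly made actin and tubulin and passes them to the cytosolic chaperonin CCT. The CIN1, CIN2 and CIN4 cofactors then help tubulin to reach its folded form.

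For each strain the tag probes on an array were averaged into 1 log2 ratio, arsenite over control, with the median strain of that array set to 0. The difference is the 100 µM value minus the 0 µM value. The direction of the deposited ratio is not stated and is called likely. Its basis is the array of haploids lacking PFD1, whose arsenite medium had no uracil. With the sign used here URA1, URA2, URA4 and URA5, the strains of uracil synthesis, read -5.23, -4.88, -3.98 and -4.32 there and ranked 2, 3, 10 and 7 from the lowest of 4612 strains. URA10, a minor isoenzyme, read -0.21, URA7 and URA8, which make CTP, 1.20 and 0.60, and CPA1, of the arginine branch, 5.01. The opposite sign would exchange lower and higher throughout.

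Most strains hardly differed between the arrays. Between the percentiles 5 and 95 the differences ran from -0.52 to 0.45, with a median of -0.01 and an SD of 0.375 over 3819 strains. A difference of -1 or less was found in 47 strains (1.23%) and of 1 or more in 27 strains (0.707%). At -2 or less there were 10 strains (0.262%) and at 2 or more there were 2 (0.0524%). The lower tail was the longer one, reaching -5.46 against 2.65 at the upper end. Taken alone, the 100 µM array had 81 of 4089 strains (1.98%) at -1 or less and 47 (1.15%) at 1 or more, and the 0 µM array, which measures no arsenite effect, 44 of 3905 (1.13%) and 54 (1.38%).

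**Figure D1:**
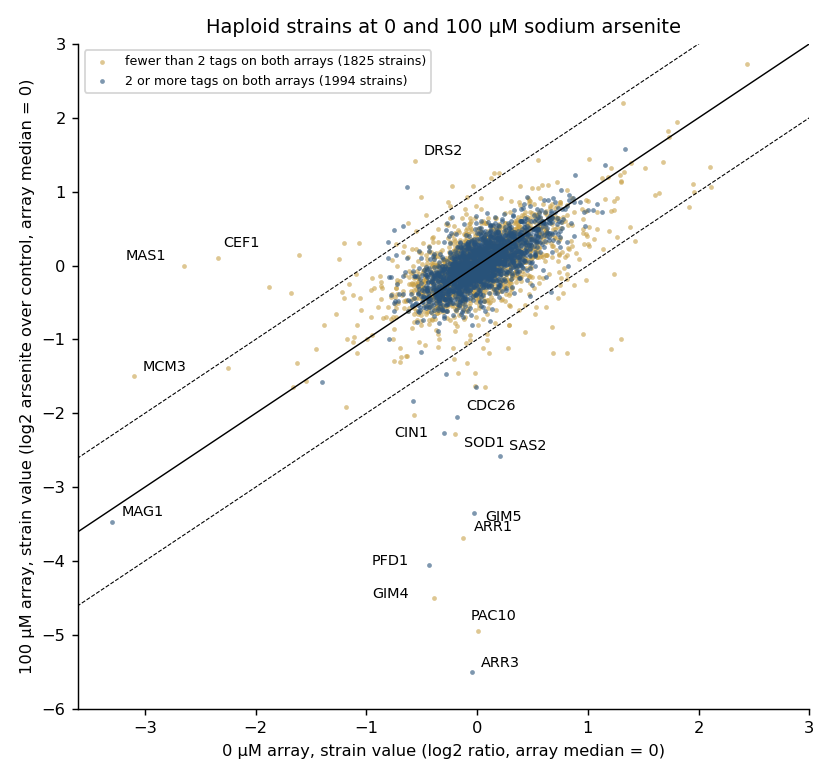
Strain values on the 0 µM array (x axis) and the 100 µM array (y axis), both as log2 ratios with the array median at 0, for 3819 strains. The solid line marks equal values and the dashed lines a difference of 1; ARR3, PAC10, GIM4, PFD1, ARR1, GIM5 and SAS2 lie far below the lines while their 0 µM values lie between -0.43 and 0.21.

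The strain lacking ARR3, the arsenite exporter, was the lowest of all. It read -0.04 at 0 µM and -5.50 at 100 µM, and its tags gave differences of -5.47 and -5.45. The strain lacking ARR1, the activator of ARR3, was at rank 5 from the lowest, with -0.13 at 0 µM and -3.69 at 100 µM. Only 1 of its tags was measured on both arrays, and that tag gave -4.35. The gene between them on the chromosome is ARR2, which encodes an arsenate reductase. Its strain read -0.23 at 0 µM and -0.45 at 100 µM, with tag differences of -0.20 and -0.23, close to the median strain. Beyond ARR1 the strain of SGE1, a drug exporter, differed by -0.12 and that of YPR196W by -0.35; no other strain within 5 genes of ARR3 had a value.

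The remaining export and vacuole strains lay near the median at this dose. YCF1, the vacuolar transporter, differed by -0.22, with -0.01 on one tag and -0.43 on the other. YAP1, a transcription factor of the oxidative stress response, differed by -0.11. At 800 µM the same strains read -4.42 for YCF1, -4.40 for YAP1 and -4.58 for ARR2, against -0.38, 0.31 and -0.45 at 100 µM. Over the 5 strains of the list the median difference was -0.22, and 2 were at -1 or less, against 1.23% of all strains.

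Strains lacking the entry channel or its activators had small positive differences. FPS1, the entry channel, differed by 0.41, with 0.38 and 0.43 on its tags. Its activators RGC1 and ASK10 differed by 0.50 and 0.32, on 1 tag each. At 0 µM FPS1 read -0.15, RGC1 -0.38 and ASK10 -0.25, so that for RGC1 and ASK10 the 0 µM value carries most of the difference. None reached 1, and the list's median of 0.41 lies below the 0.45 of the percentile 95 of all strains. At 800 µM FPS1 read 4.18, ASK10 4.74 and RGC1 1.67, against 0.26, 0.07 and 0.12 at 100 µM.

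All 6 prefoldin strains were near the bottom of the 100 µM array. PAC10 and GIM5 encode the alpha-type subunits. PAC10 read 0.01 at 0 µM and -4.95 at 100 µM, and GIM5 -0.03 and -3.36. GIM5 rests on tags that differed by -3.28 and -3.38, PAC10 on a single tag. Of the beta-type subunits, GIM4 read -0.39 at 0 µM and -4.50 at 100 µM on 1 tag. PFD1 read -0.43 and -4.06, with tag differences of -2.92 and -4.34. YKE2 and GIM3 had no 0 µM value and read -3.74 and -3.29 at 100 µM on 1 tag each. The 4 strains with a difference had a median of -3.87 and lay at ranks 2, 3, 4 and 6 from the lowest. Between subunits the order rests partly on the number of tags, and the tags of PFD1 differ from each other by more than GIM5 differs from PFD1.

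Among the chaperonin strains, which lack an essential gene, CCT5 read -0.21 at 0 µM and -1.27 at 100 µM, and CCT2 0.09 and -0.20, on 1 tag each. The prefoldin-like BUD27 read 0.56 and -0.24. No other chaperonin, phosducin-like or prefoldin-like strain had a value on these arrays.

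Of the tubulin and tubulin folding strains, 4 of 6 differed by -0.5 or less, at which 5.37% of all strains lay. CIN1, a tubulin cofactor, read -0.29 at 0 µM and -2.26 at 100 µM, with tag differences of -1.77 and -2.17. TUB3, the minor alpha-tubulin, read -0.02 and -1.46, where the tag measured on both arrays gave -1.22. CIN2 differed by -0.53 with -0.56 and -0.50 on its tags, and CIN4 by -0.29 with -0.23 and -0.36. ALF1, which binds alpha-tubulin, differed by -0.59, but its 0 µM value of 0.99 and its 100 µM value of 0.40 come from different tags. TUB4, the essential gamma-tubulin, differed by 0.42 on 1 tag. RBL2, which binds beta-tubulin, read 0.54 at 100 µM with no 0 µM value, and TUB1 had a value only at 0 µM, of -1.86. In the list 2 of 6 strains were at -1 or less, against 1.23% of all strains, and the median was -0.56.

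The lower end was best supported where each tag of a strain agreed. Of 1994 strains with at least 2 tag probes on both arrays, 8 (0.401%) had every tag at -1 or less and 1 (0.0502%) had every tag at 1 or more. Besides ARR3, PFD1, GIM5 and CIN1 the 8 were SAS2, CDC26, UBI4 and LTE1. None of the 8 had a 0 µM value beyond 0.5 in size, a range that holds most strains. All 8 were at -1 or less on the 200, 400 and 800 µM arrays, where 2.95%, 9.17% and 16.2% of all strains were. With 0.5 as the threshold, 23 strains (1.15%) had every tag lower and 14 (0.702%) every tag higher.

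SAS2 is the histone acetyltransferase of a silencing complex. Its strain read 0.20 at 0 µM and -2.58 at 100 µM, with tag differences of -2.91 and -2.65. Unlike the other 7, it did not lie lower at later doses, with -2.38, -2.23 and -1.86 at 200, 400 and 800 µM. CDC26, a subunit of the anaphase-promoting complex, read -0.18 and -2.06, and its tags -2.06 and -1.69. UBI4, the polyubiquitin gene that supplies ubiquitin under stress, read -0.01 and -1.65, with tag differences of -1.86 and -1.43. LTE1, a regulator of mitotic exit, read -0.28 and -1.46, with -1.11 and -1.26 on its tags. At 400 µM CDC26 read -4.76, UBI4 -5.47 and LTE1 -4.55.

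Below these came strains whose tags had the same sign but did not all reach -1. GSP1, the essential Ran GTPase of nuclear transport, differed by -1.25 with -1.63 and -0.88 on its tags. LTV1, of small ribosomal subunit assembly, differed by -1.02 from 0.67 at 0 µM to -0.35 at 100 µM, so that its 0 µM value carries most of the difference. SSD1, an RNA-binding protein of cell wall mRNAs, differed by -0.89 with -0.88 and -0.91 on its tags. CSF1 differed by -0.86, YIL102C by -0.82, the transcription factor CST6 by -0.78 and PIN4, a protein of the DNA damage response, by -0.76. YIL102C and CST6 read 0.00 and -0.16 at 100 µM after 0.82 and 0.62 at 0 µM, and at 800 µM they read -0.08 and 1.22. SSD1, CSF1 and PIN4 read -4.21, -3.73 and -4.56 there.

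**Figure D2:**
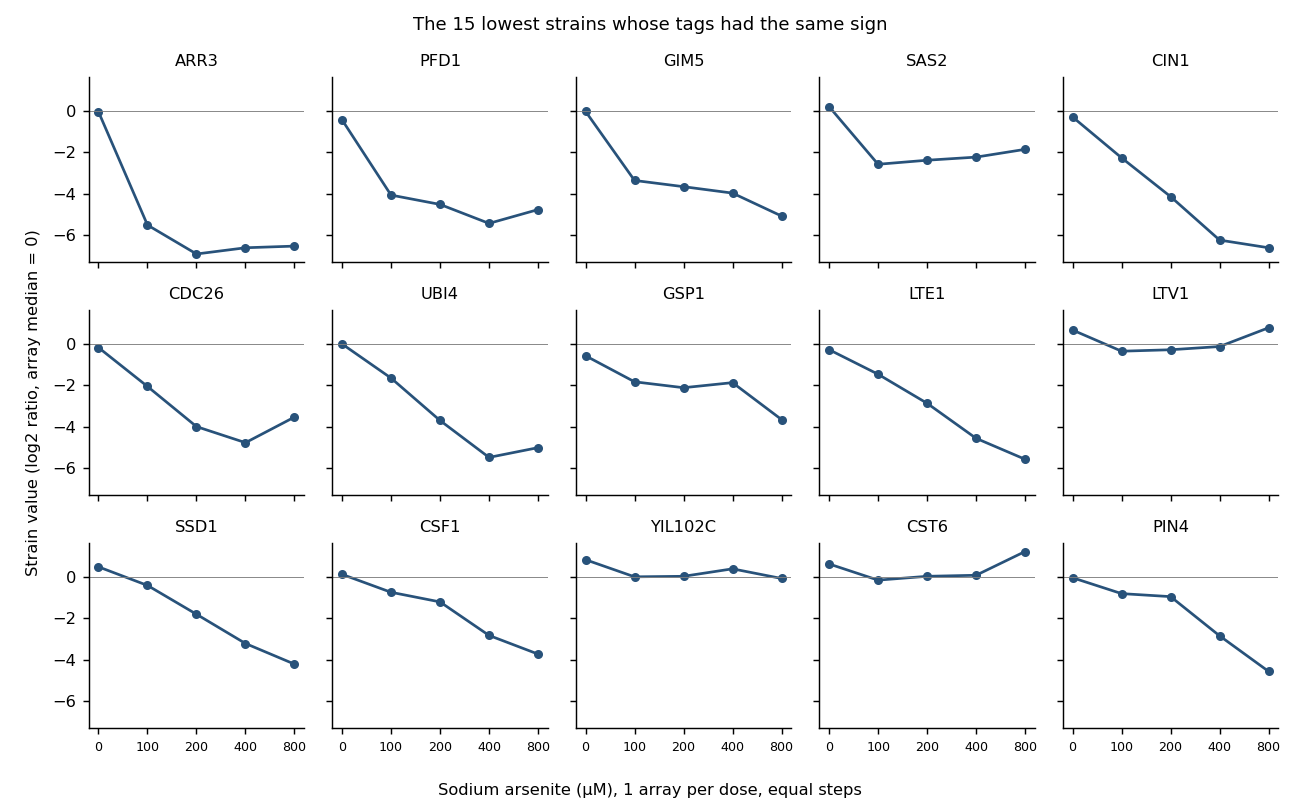
Strain values (log2 ratio, array median at 0) on the haploid arrays at 0, 100, 200, 400 and 800 µM for the 15 lowest strains whose tags had the same sign, with 1 array per dose and doses at equal steps. ARR3, PFD1, GIM5 and SAS2 have most of their loss at 100 µM, CIN1, UBI4 and LTE1 are lower again at 200 and 400 µM, and LTV1, YIL102C and CST6 lie between -0.36 and 1.22 at every dose.

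The tags of a strain give the only internal repeat in these arrays. Over 1984 strains with a probe of each tag set on both arrays, Pearson's r between the tags' differences was 0.453 and Spearman's rho 0.220, across strains that share both arrays. Without the strains whose tag mean was 1 or more in size, r was 0.198 over 1970 strains, a choice that by itself lowers r. That r therefore cannot show by itself how far small differences repeat. The rho of 0.220 covers all 1984 strains, most of them below 1 in size, and is a weak agreement between tags. The SD of the gap between tags was 0.372, which gives an error of 0.186 for a strain with 2 tags and 0.263 with 1 tag. This covers tag error only, not the culture. Both errors come from strains measured on both tag sets. Strains with fewer than 2 shared tags spread more, with an SD of 0.44 against 0.303, so 0.263 may be too small for them. In 31 strains (1.56%) the tags differed by more than 1. The widest gaps were in POP1 (-0.54 and 1.49), CAK1 (-0.91 and 1.23), MRPS16 (-0.66 and 1.03), NCP1 (0.85 and 2.53) and CAB5 (-0.58 and 0.87). Within a single array the tags' r was 0.148 over 2053 strains at 0 µM, 0.338 over 2361 at 100 µM and 0.514 over 2482 at 200 µM.

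**Figure D3:**
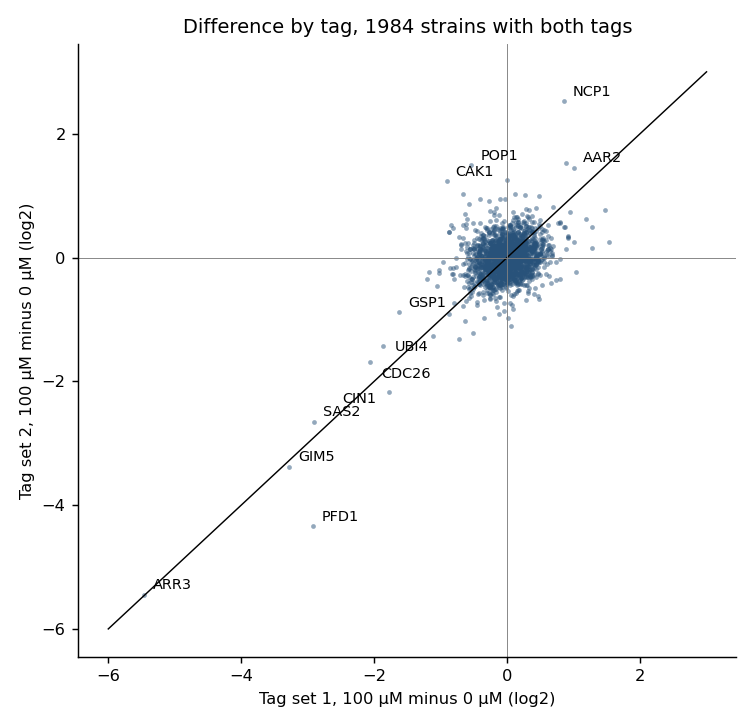
Difference between the 100 and 0 µM arrays (log2) on tag set 1 (x axis) and tag set 2 (y axis) for 1984 strains, with the line of equality. ARR3, GIM5, SAS2, CIN1, CDC26 and UBI4 lie near the line far from 0, while the mass of strains forms a round cloud at 0.

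Strains with fewer tags supplied most of the large differences. Of 1825 strains with fewer than 2 tags on both arrays, 37 (2.03%) were at -1 or less and 23 (1.26%) at 1 or more, against 10 (0.502%) and 4 (0.201%) of the 1994 with at least 2. Many also started away from the median. Among the 47 lower strains 19 read 0.5 or more at 0 µM, and 26 lay within 0.5 of the median there. The 0 µM value is part of the difference, so choosing low differences favours high 0 µM values. Of these 26, 22 read -1 or less at 100 µM, where 1.98% of all strains on that array did. Their choice already puts each of the 26 below -0.5 at 100 µM, so that count is largely built in. OST1, of N-glycosylation, went from 1.21 to -1.13 and SSQ1, a mitochondrial Hsp70, from 1.30 to -1, each on 1 tag. TRP4 and EMP70 lay above the median on both arrays, at 1.91 and 0.80 and at 2.11 and 1.06, and their shared tags gave -0.37 and 0.23.

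Named lower strains with 1 shared tag and a 0 µM value near the median are given next, with a partner gene for some. SOD1, the copper and zinc superoxide dismutase, read -0.20 at 0 µM on 2 tags and -2.28 at 100 µM on 1, and the shared tag differed by -2.61. CCS1, the chaperone that loads it with copper, read -0.06 and -1.01, a difference of -0.95 that just misses the threshold. ROM2, which activates the cell wall kinase cascade, read -0.02 and -1.63. RAD52, central to homologous recombination, read 0.11 and -1.19. IRA2, an inhibitor of Ras, read 0.09 and -0.93, a difference of -1.02. Its paralogue IRA1 differed by -0.66, with -0.62 and -0.70 on its tags. At 800 µM these strains read -4.05 for SOD1, -2.77 for CCS1, -2.93 for ROM2, -3.61 for RAD52, -4.40 for IRA2 and -5.89 for IRA1.

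On the higher side most differences began from a low 0 µM value. Of its 27 strains 18 read -0.5 or less at 0 µM, 7 read 1 or more at 100 µM, and 23 rest on 1 tag. The 0 µM value is subtracted in the difference, so choosing high differences favours low 0 µM values by itself. MAS1, CEF1 and MCM3, all essential genes, went from -2.65 to 0.00, from -2.34 to 0.10 and from -3.10 to -1.50. DRS2, a phospholipid flippase, went from -0.56 to 1.42 on 1 tag and read 0.61, 1.17 and 1.79 at 200, 400 and 800 µM. AAR2, a splicing factor, was the strain with every tag at 1 or more (1.00 and 1.45), from -0.75 to 0.47. Essential genes are marked here for some strains only. Unmarked strains, AAR2 and others on both sides included, may also lack an essential gene, and what their tags measure would then be uncertain.

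The other strains highest by agreeing tags were of mixed kind. NCP1, the reductase that serves cytochrome P450 enzymes of sterol synthesis, differed by 1.69 with unequal tags. PRS3 and PRS1, which encode subunits of the enzyme that makes the nucleotide precursor PRPP, differed by 1.21 and 1.12. MTF1 differed by 0.91, SCP160 by 0.89, LSM8 by 0.88, RCY1 by 0.84, YGR111W by 0.76 and RPS7B by 0.74. At 0 µM NCP1, PRS3, PRS1, MTF1, LSM8 and RPS7B lay between -0.81 and -0.63. At 800 µM RCY1 read 0.97 and RPS7B 1.89, whereas NCP1 read -3.01 and PRS3 -1.18.

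**Figure D4:**
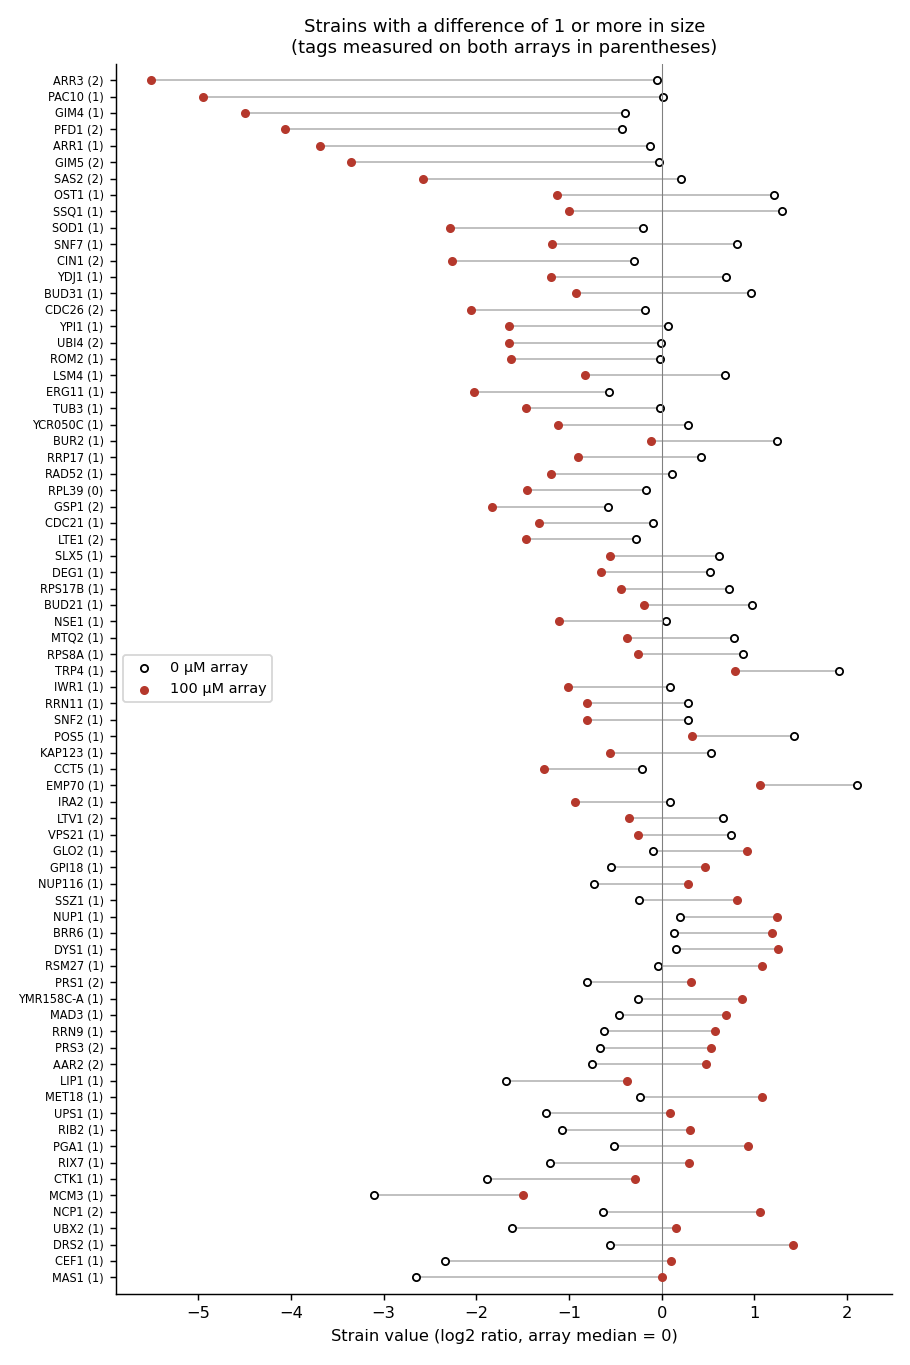
Values of each strain with a difference of 1 or more in size on the 0 µM array (open circles) and the 100 µM array (filled circles), as log2 ratios with the array median at 0. The 6 lowest strains start between -0.43 and 0.01, whereas 18 of the 27 higher strains start at -0.5 or less, which choosing by the difference favours.

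On the arrays of higher doses 22 of the 47 lower strains read -1 or less at 200 µM, where 2.95% of all strains did. At 400 µM it was 31 of 42 (9.17% of all strains) and at 800 µM 31 of 42 (16.2%). Of the higher strains, 3 of 22 read 1 or more at 200 µM (1.80% of all strains), 3 of 24 at 400 µM (2.11%) and 3 of 23 at 800 µM (11.6%), and 10 of 23 read -1 or less at 800 µM. Whether the control culture was shared between arrays is not stated in the labels.

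In the gene lists beyond those above, few strains passed 1 in size. The HOG kinase pathway, which answers osmotic stress and also restrains FPS1, had 0 of 18 strains at -1 or less. At -0.5 or less, a threshold chosen after the spread was seen and met by 205 strains (5.37%) with 154 (4.03%) at 0.5 or more, it had 3 strains. These were the kinases PBS2 (-0.64) and HOG1 (-0.54) and the adaptor STE50 (-0.50), on 1 shared tag each. SSK1 and SSK2, upstream in the sensor branch, differed by -0.36 each. PBS2, HOG1, SSK1 and SSK2 then read -4.74, -5.06, -6.60 and -4.97 at 800 µM. STE11, OPY2, NBP2, SKO1, HKR1 and MSB2 differed by -0.41 to 0.00. On the positive side were the phosphatases PTP2 (0.42) and PTC1 (0.28) with SSK22 (0.36), HOT1 (0.22), SHO1 (0.20), RCK2 (0.04) and STE20 (0.02).

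Of 32 endosome sorting strains (ESCRT, HOPS, CORVET, retromer and related) 10 were at -0.5 or less, where 5.37% of all strains lay. At -1 or less, with 1.23% of all strains, were SNF7 (-1.99) and VPS21 (-1.01). VPS36 (-0.97) and MVB12 (-0.69) followed, and the shared tag of VPS36 gave -0.64. All 10 rest on 1 shared tag, and SNF7 and VPS21 read 0.81 and 0.75 at 0 µM. VPS21 read 0.31, 0.18 and 0.43 at 200, 400 and 800 µM, whereas SNF7 read -1.39 at 200 µM with no later value.

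Chromatin and repair lists had at most 1 strain each at -1 or less, against 1.23% of all strains. In SWI/SNF, SAGA and Mediator it was 1 of 23, the remodeller SNF2 (-1.10), with NGG1 at -0.76, SWI3 at -0.58 and the acetyltransferase GCN5 at -0.52. SNF2, NGG1 and SWI3 rest on 1 shared tag each, and the tags of GCN5 gave -0.12 and -0.92. NGG1 read 0.65 at 0 µM and -0.11 at 100 µM, so that its 0 µM value carries most of the difference. In homologous recombination and DNA damage 1 of 38 was, RAD52 (-1.30), with MMS2 at -0.86 and ASF1 at -0.64. MMS2 started at 1.38, and its shared tag gave -0.37. TOP1 differed by -0.85 from 1.95 at 0 µM, although its shared tag gave 0.13. MAG1, a DNA glycosylase, read -3.30 at 0 µM and -3.47 at 100 µM, a difference of -0.17, and stayed between -3.42 and -3.26 at the later doses. The COMPASS, SWR1 and Rpd3L list had 0 of 25 at -1 or less, with RPD3 and RTF1 at -0.47, SWD3 at -0.43 and SWC3 at 0.82.

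Cell wall and cytoskeleton lists were similar. The cell wall pathway had 1 of 16 strains at -1 or less, ROM2, followed by TUS1 (-0.76), GAS1 (-0.66) and SAC7 (-0.47). TUS1, like ROM2 an activator of the Rho1 GTPase, has tag differences of -1.06 and -0.46. Actin strains had 0 of 20, with the kinase CLA4 at -0.90, RVS161 at -0.54, CAP1 at -0.37 and TWF1 at -0.29, where the shared tag gave 0.05. Dynein, dynactin and kinesin strains had 0 of 19, with the dynactin parts LDB18 at -0.56 and ARP1 at -0.51 and the microtubule proteins KAR3 at 0.57 and BIM1 at 0.72. In the spindle checkpoint and kinetochore list CHL4 was at -0.33, NKP1 at 0.39 and MAD1 at 0.28. MAD3 differed by 1.15, but its only shared tag gave -0.10, so that this difference comes from which tags were measured.

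In the proteasome and ubiquitin list CDC26 and UBI4, described above, were the 2 of 21 at -1 or less, while RPN13 (0.52) and UFD4 (0.55) lay above. Among 33 cytosolic chaperone strains YDJ1, a major Hsp40, differed by -1.88 from 0.69 to -1.19 on 1 tag. SSZ1, a ribosome-bound Hsp70, differed by 1.05, CPR7 by -0.54 and SGT2 by -0.48. Among 15 Rsp5 adaptor strains LDB19 differed by -0.64, BUL1 by -0.49, BSD2 by -0.36 and BUL2 by -0.33; BUL1 read -2.25 at 200 µM and -4.85 at 800 µM.

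Of 29 glutathione and redox strains 1 was at -1 or less and the median was -0.01, with TRX1 at -0.65 from 1.61 and GPX1 at 0.41. The 22 sulfur strains had a median of -0.02 and 0 at -1 or less, with CYS3 and MET17 at -0.48, MET32 at 0.39 and MET18, an iron-sulfur protein assembly factor, at 1.31. In Ras-PKA and TORC1 regulators IRA2 was the 1 of 29 at -1 or less; SEA4, of the complex upstream of TORC1, differed by -0.72 with -0.66 and -0.79 on its tags. SIP1 differed by 0.87 while its shared tag gave -0.12.

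Ribosome strains showed no common shift. The 65 cytosolic ribosome strains had a median of 0.03, with 3 at -1 or less (1.23% of all strains) and 0 at 1 or more (0.707%). The 3 were RPL39 (-1.28, with no tag shared between the arrays), RPS17B (-1.17) and RPS8A (-1.14). RPS17B, RPS8A and RPL13A (-0.93) started at 0.73, 0.88 and 0.81 at 0 µM, and RPS19A differed by 0.75. The 42 mitochondrial ribosome strains had a median of -0.03, with RSM27 at 1.12, MRPL23 at 0.80, PET123 at 0.71 and RSM25 at -0.74. The respiratory chain list (47 strains, median -0.07) had ATP15 at -0.59, QCR10 at 0.53, COX15 at -0.49 and SDH2 at -0.45.

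The remaining lists had medians between -0.04 and 0.13. In ergosterol synthesis (10 strains), ERG24 differed by -0.58, ERG28 by -0.50 with a shared tag at -0.20, and ERG6 by -0.35; NCP1, above, is the other named member. In the nuclear pore and mRNA decay list (36), RRP6 differed by -0.75, NUP170 by -0.61 with a shared tag at -1.26, POP2 by -0.60 and LRP1 by 0.73. In Elongator (15), ELP3 differed by -0.69, URM1 by -0.50, ELP2 by -0.44 and TRM9 by 0.49. The vacuolar ATPase list (15) had VMA11 at -0.54, VMA7 at 0.48, VPH2 at 0.77 and RAV1 at 0.25. Autophagy (25) had ATG8 at -0.49, ATG13 at 0.38, ATG7 at 0.35 and VPS30 at 0.24. Phosphate (18) had PHO90 at 0.69, PHO2 at -0.47, VTC1 at 0.45 and PHO87 at -0.41. Uracil synthesis (7) had URA4 at -0.31, URA7 at 0.29, URA10 at 0.28 and URA8 at -0.21.

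**Figure D5:**
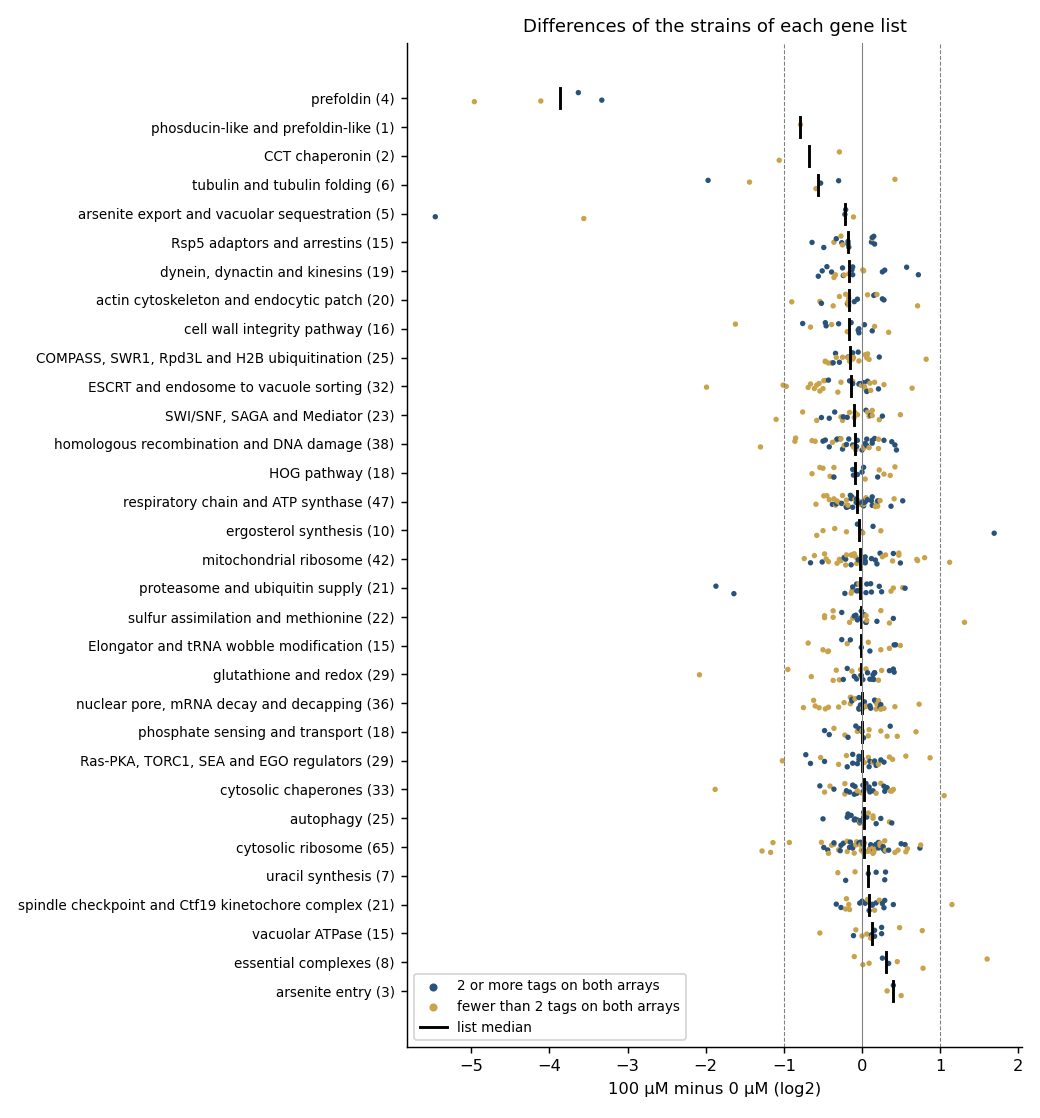
Differences between the 100 and 0 µM arrays (log2, x axis) for the measured strains of each gene list, with the number of strains in parentheses, the list median as a bar and strains with at least 2 shared tags in blue. Prefoldin stands at a median of -3.87, and the other lists with at least 3 strains have medians between -0.56 and 0.41.

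Strains of essential complexes show how tags behave where no haploid should grow. Of 144 such genes 19 had a value at 100 µM and 8 on both arrays, where the differences had an SD of 0.548 and a median of 0.30. MCM3 (1.6), SSL1 (0.78), ORC3 (0.45) and RPC10 (0.34) differed most among those with no shared tags of opposite sign. MCM3, SSL1 and ORC3 rest on 1 shared tag each, so only RPC10, with 0.59 and 0.09, could show agreement. PRP38 differed by -0.10, although its shared tag gave -1.23. The 10 lowest strains at 0 µM are a separate group, chosen by value and not by whether the gene is essential. They included MCM3, MAS1, CEF1, BBP1 and CTK1, and MAG1, described above. ARL3, RPL27A, URB1 and DCP2, also among them, read -3.55, -3.24, -2.40 and -2.09 there with no value at 100 µM. BBP1 went from -2.25 to -1.38, and CTK1 from -1.88 to -0.29.

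In all 270 strains had a 100 µM value and none at 0 µM, so that no difference exists for them. The lowest were YKE2, GIM3, RPL21A (-2.94), RTR1 (-2.74) and THS1 (-2.58), on 1 tag each. RTR1, a phosphatase of RNA polymerase II, read -4.55 and -3.41 at 200 and 400 µM. RPL21A and THS1, the essential threonyl-tRNA synthetase, had no value on these later arrays.

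Where measured, the strains next to the lowest ones on the chromosome did not share their loss. For ARR1, ARR3, the prefoldin genes, CIN1, SAS2, UBI4 and LTE1, 17 strains lacking an adjacent gene had a difference. ARR3, GIM3, GIM4, GIM5, SAS2 and LTE1 had it on 1 side only, and CDC26 on neither side. The 17 differences lay between -0.42 and 0.40 with a median of -0.07, and 0 of 17 were at -1 or less, against 1.23% of all strains. The lowest were VPS13 beside UBI4 at -0.42 and PEX8 beside PAC10 at -0.39.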

How the data were processed

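Tags amplified by PCR from the pool's DNA were hybridised to 2-colour arrays with the control culture in Cy5 and the arsenite culture in Cy3, per the labels' protocols. The authors deposited 1 log ratio per probe, taken here as log2. Not given in the sources used here are its base, centring and direction, the scanner software, the normalization and any filters. Deposited medians were -0.09 (100 µM) and -0.08 (0 µM). No dye swap is labelled, so a tag's dye bias cancels only in the difference between arrays.

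Values were sign-turned, averaged over a strain's probes and centred on the array's median strain (Python 3.11.15, pandas 2.3.3). Of 7252 and 6691 probes with a value at 100 and 0 µM, 6509 and 6013 are named by the platform annotation; 8 of 18794 annotated probes had no match in the R64 gene table and keep the annotation's name. The annotation does not say UpTag or DnTag, so tag sets 1 and 2 follow table position (an offset of 10971 in all 4439 strains with 2 probes). Tag sequences and signal intensities were not used here. The calculation was tested on simulated data.

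Each dose has 1 array, so no test was run, and precision is limited by their number. A difference of 1 in size counts as lower or higher. Named strains are the 15 lowest and 10 highest with at least 2 tags of the same sign, all measured members of the prefoldin, chaperonin, prefoldin-like, tubulin, export, entry and HOG lists, up to 4 members of each other list with the largest differences and tags of the same sign, the 5 widest tag gaps, the 5 lowest without a 0 µM value, strains within 5 genes of ARR3 and the 10 lowest at 0 µM. In those other lists a strain with 1 shared tag passes the rule of the same sign by itself, which shows no agreement. Among the 1994 strains with at least 2 shared tags, 1123 had tags of the same sign, so the same sign alone is weak support. OST1, SSQ1, TRP4, EMP70, DRS2, RPL39, PRP38, VPS13 and PEX8 were chosen after their values were seen. Members and lists were chosen with earlier results of these data known. Alternatives covered tag choice, scaling, centring, the control array, the threshold and the log base.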

Additional observations from a re-analysis of the deposited data

Results flagged for a closer look

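A tag probe that the platform annotation leaves without a gene had the lowest value of any probe on the 100 µM array. Probe 15155 differed by -6.81, from -0.07 at 0 µM to -6.88 at 100 µM, which is below each tag of ARR3. It read -4.12, -5.96, -4.37 and -1.02 at 200, 400, 800 and 1600 µM, and -0.10 and -0.31 in the heterozygous pool at 0 and 450 µM. In all 664 unnamed probes had a value on both arrays, and 4 of them (0.602%) were at -1 or less, against 62 of 5865 named probes (1.06%). The strain is not named here.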

How the results depend on the processing

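With 1 array per dose there is no replicate to leave out, and no intensities were used that could show which tags lay near background. No paired analysis was possible because each group has 1 array. A strain's difference was held to have moved when it changed by more than its tag error. Strains at -1 or less numbered 47 and at 1 or more 27. Restricting to at least 2 tags gave 10 and 4, tag set 2 alone 22 and 14, the 100 µM array without subtraction 81 and 47, a threshold of 2 10 and 2, and the natural log 96 and 68. Alternatives chosen after seeing the data were a threshold of 0.5, with 205 and 154, and strains within 0.5 of the median at 0 µM, with 26 and 9. The same tags, tag set 1, scaling by the median absolute deviation, quantile normalization, mean or no centring and the mean of both 0 µM arrays kept each count within 1.5 times (37 to 49 lower, 19 to 34 higher). Strains with every tag lower numbered 8 (4 at a threshold of 2, 23 at 0.5) and higher 1 (0 at 2, 14 at 0.5), and the lower count was 7 by quantile normalization. The mean of each of the 8 was at -1 or less under every setting of scaling, centring and control array; the settings of tags could not move it past -1, since the 8 were chosen on every tag. The correlation between tags was 0.453, or 0.338 without subtraction and 0.198 without the strains whose tag mean was 1 or more in size. The prefoldin median of -3.87 became -3.48 with at least 2 tags, -3.27 on tag set 1, -4.34 on tag set 2, -2.96 by quantile normalization and -4.06 against both 0 µM arrays. The export median of -0.22 became -0.43 on tag set 2, -0.45 without subtraction and -0.49 against both 0 µM arrays. MAD3 (1.15) turned to -0.10 on the same tags and -0.09 on tag set 1, and CTK1 (1.59) and MCM3 (1.6) to -0.29 and -1.50 without subtraction; for MAD3 the tags measured differ between arrays, and for CTK1 and MCM3 the 0 µM value is left out by construction. Where a value moved otherwise, the cause was not tested.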

Other observations

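Values of the 8 strains with every tag lower are set here beside the other pools, at other doses and in other media, so no comparison is made. In heterozygous diploids at 450 µM, where 1 copy of the gene remains, ARR3 read -2.20 and SAS2 -1.94, against -0.03 and 0.17 at 0 µM. PFD1, GIM5, CIN1, CDC26, UBI4 and LTE1 read between -0.20 and 0.09 at 450 µM. In haploids that also lack PFD1, at 5 µM and without uracil, SAS2 read -3.54, LTE1 -2.50, CIN1 -2.07, ARR3 -1.89, CDC26 -0.43, GIM5 -0.26, PFD1 -0.11 and UBI4 0.17.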
